A study of Homo sapiens with 12 samples.

Results

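Glutathione peroxidase genes were examined in 12 RNA-seq libraries of HT-29 cells, a human line from a colon adenocarcinoma in which APC is mutant. The members are the rows of the deposited expression table named GPX1, GPX2, GPX3, GPX4, GPX7 and GPX8, which make 6 of its 25528 rows. The family was selected on the measured values of GPX3, which was high in the GFP control and far lower with CTNNB1. Its change with CTNNB1 minus that with the APC hairpin was part of the selection. All GPX3 values are therefore given as a description without a test. Every library came from cells that had received lentivirus, in 4 groups of 3. In one pair the virus carried an open reading frame, encoding GFP (the control) or CTNNB1, the gene of beta-catenin, and cells were taken 2 days after infection. In the other pair it carried a doxycycline-inducible short hairpin RNA, named shNT1 (the control) or shAPC (against APC), and cells were taken 1 day after 2 µM doxycycline. APC belongs to the complex that marks beta-catenin for destruction, and HT-29 is a single established line. The labels do not say whether the 3 libraries of a group came from separate cultures, so p-values measure only the spread between these libraries, which may be technical.

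Glutathione peroxidases reduce hydrogen peroxide and lipid hydroperoxides with electrons from glutathione, which glutathione reductase then regenerates with NADPH. GPX1, GPX2, GPX3 and GPX4 carry selenocysteine at the active site, whereas GPX7 and GPX8 carry cysteine. GPX2 is the family's typical enzyme of the gastrointestinal epithelium and has been described as a target of both the oxidant-sensing factor NRF2 and beta-catenin. GPX3 is secreted and supplies the peroxidase of plasma, most of it from the kidney.

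Per GENCODE v29 on GRCh38, GPX1 (ENSG00000233276) lies on the minus strand at chr3:49357171-49358600 and is classed as a polymorphic pseudogene. The other 5 genes are classed as protein coding. GPX2 (ENSG00000176153) lies on the minus strand at chr14:64939152-64942905, and GPX3 (ENSG00000211445) on the plus strand at chr5:151020438-151028993. GPX4 (ENSG00000167468) lies at chr19:1103926-1106791, GPX7 (ENSG00000116157) at chr1:52602372-52609051 and GPX8 (ENSG00000164294) at chr5:55160118-55167071, all on the plus strand. The GPX2 span is enclosed by CHURC1 on the opposite strand, and that of GPX8 by CDC20B. Neither pair shares an exonic base. CHURC1 averaged between 15.6 and 19.7 TPM in the 4 groups, and CDC20B did not exceed 0.027 TPM in any library. Strandedness is not stated, so intronic reads of CHURC1 could not be separated from GPX2 by strand.

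Sequence before the start sites is shown for GPX2, the member called lower with CTNNB1, and for GPX3, whose values selected the family. All 6 genes matched RefSeq (GRCh38.p14), and the 250 bases before each listed start were searched on both strands. The first motif was the antioxidant response element core TGACNNNGC, which factors such as NRF2 bind. It was present in 10.9% of 35116 windows of this length. The second was the TCF/LEF core, CTTTG followed by AA, AT, TA or TT, present in 12% of them. GPX2 held 1 antioxidant response element core, read on the opposite strand, which begins 122 bases before the RefSeq start and lies within a GENCODE exon. GPX8 held 1 TCF/LEF core, beginning 175 bases before its start. GPX1, GPX3, GPX7 and the 3 windows listed for GPX4 held neither, which says only that these letters are not in those windows. The GPX2 match is shown in capitals with its flanks (30 bases, minus strand, chr14:64942848-64942877). For GPX3 the 97 bases upstream of its annotated exons are shown (plus strand, chr5:151020341-151020437).
GPX2: acctgtttttGCTAAGTCAtcctggggatg
GPX3: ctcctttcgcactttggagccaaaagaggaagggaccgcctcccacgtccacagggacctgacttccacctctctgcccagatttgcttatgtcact

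The 12 libraries were first checked as a whole. TPM (transcript abundance scaled for length and to one total per library) keeps no sequencing depth, so depth is unknown. Between 14756 and 16186 genes were above 0, the fewest in shNT1 replicate 3, and Pearson correlations of log2(TPM + 1) within groups ran from 0.991 to 0.997. APC had a mean of 16.4 TPM (SD 0.803, n = 3) with shNT1, and with shAPC it was at 5.99 TPM (SD 0.558, n = 3; limma adjusted p = 6.1e-06). CTNNB1 averaged 146.3 ± 2.87 TPM in GFP and 160.1 ± 4.24 TPM in CTNNB1 libraries (limma adjusted p = 0.059), a difference that did not pass the threshold of 0.05. Of a list of WNT target genes, leaving out NKD1 and NOTUM, which passed the filter on low values only through the perturbed group in both arms, 10 of 13 tested rose and 0 fell with CTNNB1 (1 at an unadjusted p under 0.05). With shAPC 11 of 13 rose and 1, MYC, fell (limma adjusted p = 0.041), a call that was kept only without shAPC replicate 1 when single libraries were left out. The summed level of 9 colon epithelial markers lay between 8594 and 12400 TPM. Over the 12 libraries 7 of the 9 had a mean of at least 1 TPM, and the intestinal factors CDX1 and CDX2 were below it. Fibroblast, endothelial, liver and kidney proximal tubule lists (kidney being the main source of plasma GPX3) had 0 genes at a mean of 1 TPM, and the kidney list summed to at most 0.1 TPM in any library. In the immune and Paneth lists LYZ carried nearly all of the sum, and CD3E, DEFA5 and DEFA6 were listed at 0. In bulk RNA, fewer cells of a type and less RNA per cell cannot be told apart.

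GPX3 lay between 114.7 and 120.1 TPM in the GFP control and between 22.4 and 32.7 TPM in the other groups. The GFP libraries had 120.1, 114.7 and 117.6 TPM, and the CTNNB1 libraries 31.0, 32.7 and 30.4 TPM. The shNT1 libraries had 23.8, 22.4 and 23.9 TPM, and the shAPC libraries 27.9, 28.4 and 23.9 TPM. All 3 GFP libraries lay far above the other 9. The means were 117.5 ± 2.696 TPM in GFP, 31.4 ± 1.22 in CTNNB1, 26.7 ± 2.49 in shAPC and 23.4 ± 0.82 in shNT1 (SD, n = 3 each). In that order no neighbouring ranges overlapped, with ratios of means of 3.75, 1.17 and 1.15, although shAPC and shNT1 were separated only by 23.89 against 23.86 TPM. The highest and lowest means differed 5.03-fold. On the log2(TPM + 1) scale CTNNB1 minus GFP came to -1.87 (SE 0.05) for GPX3. It ranked 1414 by mean TPM among genes above 0 in GFP, and 4517, 5500 and 4891 in CTNNB1, shNT1 and shAPC.

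**Figure D1:**
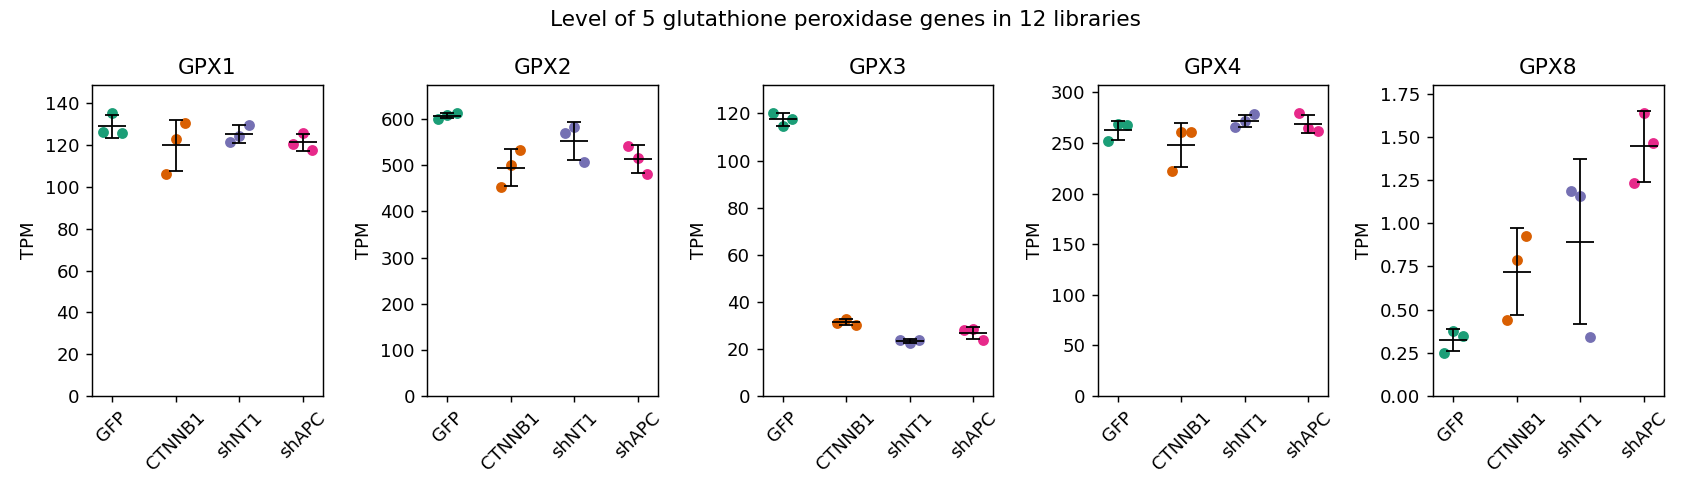
TPM of 5 members in each of the 12 libraries, 1 panel per gene, with dots for libraries, a bar for the group mean and whiskers for the SD of 3 libraries. The 3 GFP dots of GPX3 sit between 114.7 and 120.1 TPM, above the other 9, while those of GPX1 overlap across all 4 groups.

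Within the hairpin pair, GPX3 ran the other way. It was higher in shAPC than in shNT1 by 0.18 (SE 0.07) on the log2(TPM + 1) scale. These values entered the selection of the family through the difference between the pairs, so no test is given. The shAPC minus shNT1 difference was 0.23 after median-ratio scaling and 0.24 after quantile normalization. It ran from 0.14 to 0.26 with single libraries left out. It was highest without shAPC replicate 3, which had the lowest GPX3 of its group. The authors' deposited table lists 0.23 on a log2 scale. The CTNNB1 effect on GPX3 minus the shAPC effect came to -2.06 (SE 0.09).

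The controls of the pairs differed more in GPX3 than the perturbed groups did. This restates the difference between the pairs that entered the selection of the family, so it is no separate result. GFP exceeded shNT1 by 2.28 (SE 0.06) on the log2(TPM + 1) scale, and CTNNB1 exceeded shAPC by 0.23 (SE 0.06). GFP and shNT1 differ in the virus, the day of collection and doxycycline, and these cannot be told apart. For GPX1, GPX2 and GPX4 none of the differences between the controls passed the threshold (limma adjusted p between 0.13 and 0.66), against 29.6% of all genes. Between CTNNB1 and shAPC none passed either (limma adjusted p between 0.14 and 0.83), against 31.8% of all genes, and GPX4 passed there only after quantile normalization, at -0.22 (limma adjusted p = 0.01).

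GPX2 was the most abundant member in every library, and it fell with CTNNB1. The GFP libraries had 601.2, 609.5 and 612.8 TPM, and the CTNNB1 libraries 453, 499.7 and 532.8 TPM. Every CTNNB1 library lay below every GFP library. The means were 607.8 ± 5.96 and 495.2 ± 40.1 TPM (SD, n = 3 each), and the change was -0.30 on the log2(TPM + 1) scale (SE 0.06, 95% interval -0.43 to -0.17, limma adjusted p = 0.0052). Leaving out any 1 library kept the adjusted p between 0.0015 and 0.029. The authors' deposited table has -0.37 with an adjusted p of 0.035.

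In the hairpin pair GPX2 did not pass. The shNT1 libraries had 569.9, 583.3 and 506.3 TPM, and the shAPC libraries 541, 516.5 and 481.3 TPM, so the groups overlapped. The difference was -0.11 (SE 0.07, 95% interval -0.26 to 0.04, limma adjusted p = 0.28). The CTNNB1 effect minus the shAPC effect was -0.19 (95% interval -0.39 to 0.01, limma adjusted p = 0.17), so the 2 effects were not shown to differ. By level, GFP came first without overlap with shNT1, followed by shNT1, shAPC and CTNNB1, each overlapping its neighbour.

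GPX4, which reduces phospholipid hydroperoxides in membranes and protects against ferroptosis, was the second member by level. Its libraries had 251.9, 268.4 and 267.7 TPM in GFP and 222.8, 260.9 and 261.1 TPM in CTNNB1. They had 266.3, 271.5 and 278.3 TPM in shNT1 and 279.5, 265.3 and 262.1 TPM in shAPC. Groups next to each other by mean overlapped. Across the pairs, which differ in virus, day and doxycycline, all CTNNB1 libraries lay below all shNT1 and shAPC libraries. Against the own control the differences were -0.08 with CTNNB1 (95% interval -0.23 to 0.06, limma adjusted p = 0.37) and -0.02 with shAPC (95% interval -0.13 to 0.09, limma adjusted p = 0.84).

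GPX1, the widely expressed enzyme of cytosol and mitochondria, had the closest group means of the members detected, 1.08-fold from highest to lowest. Its libraries ran from 125.6 to 135.3 TPM in GFP, 106.3 to 130.5 in CTNNB1, 121.4 to 129.9 in shNT1 and 117.7 to 125.6 in shAPC, and all 4 ranges overlapped. The differences were -0.11 with CTNNB1 (95% interval -0.27 to 0.05, limma adjusted p = 0.3) and -0.05 with shAPC (95% interval -0.16 to 0.07, limma adjusted p = 0.57). GENCODE also annotates the processed pseudogenes GPX1P1 and GPX1P2, and how reads shared with them were counted is not given in the sources used here. CTNNB1 replicate 1 had the lowest GPX1, GPX2 and GPX4 of the 12 libraries.

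GPX8, a membrane protein of the endoplasmic reticulum, was near the limit of the table. The GFP libraries had 0.251, 0.375 and 0.348 TPM, and the CTNNB1 libraries 0.439, 0.788 and 0.929 TPM. The shNT1 libraries had 1.18, 1.16 and 0.341 TPM, and the shAPC libraries 1.23, 1.64 and 1.47 TPM. Both perturbed groups lay above their controls without overlap, in the hairpin pair only by 1.232 against 1.185 TPM. Of all genes tested, 43.2% with CTNNB1 and 40.9% with shAPC had groups that did not overlap. The level in shNT1 replicate 3 stood well below the other 2 shNT1 libraries. GPX8 passed the filter of a mean of 1 TPM only in the hairpin pair, and there only through shAPC, the group where it was higher, so it is left out of the counts of members. Without any filter its difference was 0.37 with CTNNB1 (limma adjusted p = 0.084) and 0.40 with shAPC (limma adjusted p = 0.27), and neither passed the threshold. Adding 1 before the logarithm understates folds at such levels, and the authors' deposited table has 1.01 with CTNNB1 (adjusted p = 0.18) and 0.88 with shAPC (adjusted p = 0.42).

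GPX7, the related enzyme of the endoplasmic reticulum lumen, was listed at 0 in all 12 libraries, as were GPX5 and GPX6, relatives known from epididymis and olfactory tissue. In the authors' deposited tables these 3 genes share one mean log2 expression, -5.76 in the CTNNB1 comparison. No fold is given for them.

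**Figure D2:**
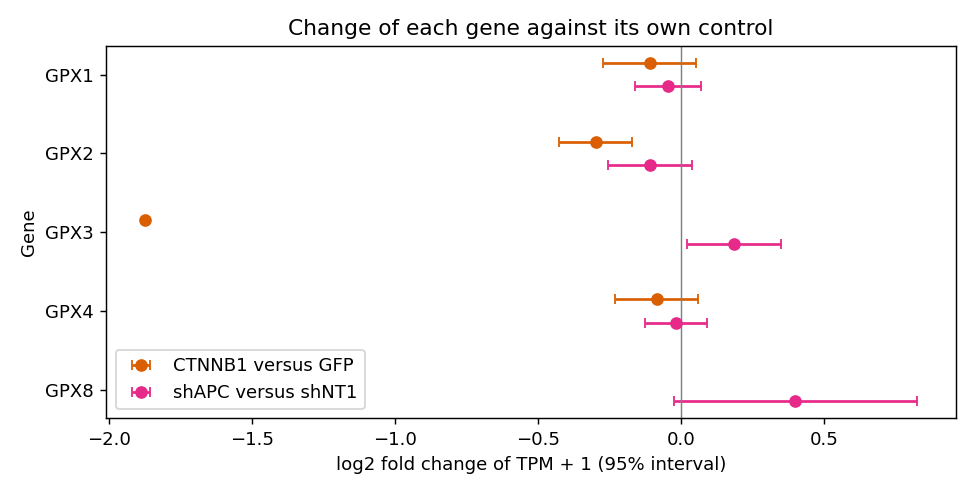
Difference in log2(TPM + 1) of each tested member from its own control, with 95% intervals from the limma fits, for CTNNB1 and for shAPC. The GPX3 point at -1.87 has no interval because it was used to select the family. The GPX3 values with shAPC entered that selection too, so their interval (0.02 to 0.35) is a description and no test. Among the other genes only the GPX2 interval with CTNNB1 (-0.43 to -0.17) excludes 0. GPX8 is shown for shAPC alone, the group through which it passed the filter.

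Of the 6 members, 4 passed the filter with CTNNB1 and 5 with shAPC. Leaving GPX3 aside, 1 of the 3 others, GPX2, was called lower with CTNNB1 and 0 higher. Across all genes in that fit 23.5% were called, 16.3% higher and 7.16% lower, and 43.2% had groups that did not overlap. The called genes were 69.5% higher ones, and 49.4% after median-ratio scaling or 52.9% after quantile normalization. Leaving GPX3 and GPX8 aside, limma called 0 of the 3 others with shAPC (unadjusted p at least 0.14). Across all genes there 22.1% were called, 7.24% higher and 14.9% lower. Those were 32.8% higher ones, and 47.6% or 49.4% after the same scalings. In each of GPX1, GPX2 and GPX4 the groups overlapped there, while 40.9% of all genes had groups that did not. None of GPX1, GPX2 and GPX4 differed between the arms in its effect, against 16.1% of all genes.

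Since TPM is scaled for length, the members can be added up. The summed level was 1117 ± 15.5 TPM in GFP, 895.4 ± 73.5 in CTNNB1, 974.7 ± 32.8 in shNT1 and 931.4 ± 42.3 in shAPC (SD, n = 3 each). GPX2 made up between 54.4% and 56.7% of it as group means, GPX4 between 23.5% and 28.9%, and GPX1 between 11.5% and 13.4%. GPX3 took 10.5% in GFP and 3.52%, 2.40% and 2.87% in CTNNB1, shNT1 and shAPC. GPX3 was thus near the level of GPX1 in GFP (ratio 0.912 ± 0.0562) and well below it elsewhere (0.264, 0.187 and 0.220). With CTNNB1 the sum was lower by 221.9 TPM, of which GPX2 gave 50.8% and GPX3 38.8%. With shAPC the sum differed by -43.2 TPM, and GPX2 accounted for -40.2 TPM of it. These sums are given as values without a test, since GPX3 is among them.

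**Figure D3:**
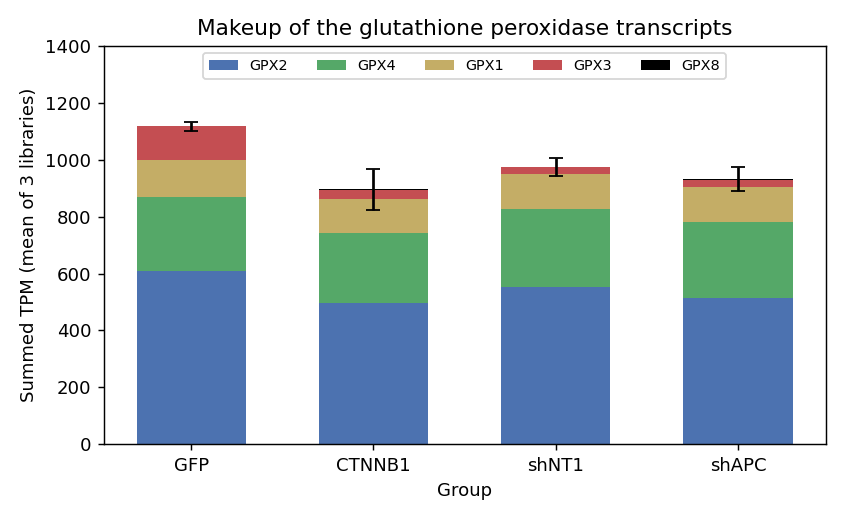
Summed TPM of the members in each group as stacked means of 3 libraries, with the SD of the sum as whiskers. The GPX3 segment takes 10.5% of the bar in GFP and 2.40% to 3.52% in the other groups, while GPX2 takes more than any other member in all 4.

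Genes around glutathione, the substrate of the family, fell more often than all genes with CTNNB1. The list covers synthesis, recycling, breakdown, transport and NADPH supply, so a fall is not always one in an enzyme that makes glutathione. Of 20 such genes, all tested, 11 fell and 0 rose (2 at an unadjusted p under 0.05, and 2 called without CTNNB1 replicate 1). The median was -0.25 beside 0.06 for all genes tested, of which 7.16% were called lower and 16.3% higher. With single libraries left out 9 to 11 fell. GCLM, the modifier subunit of the enzyme that starts glutathione synthesis, went from 79.5 ± 4.77 to 44.1 ± 3.64 TPM (-0.84, limma adjusted p = 5.1e-05). ME1, a malic enzyme that yields NADPH, went from 144.4 ± 7.09 to 90.1 ± 4.65 TPM (-0.68, limma adjusted p = 5.1e-05). GSR, glutathione reductase itself, was among those called (-0.35).

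With shAPC 10 of the 20 fell and 3 rose, with a median of -0.17 beside -0.05 for all genes. Across all genes there 14.9% were called lower and 7.24% higher. SLC7A11, the cystine importer, fell from 124.1 ± 13.5 to 78.5 ± 5.37 TPM (-0.65, limma adjusted p = 0.00046), and GCLM from 40.4 ± 4.23 to 30.8 ± 1.61 TPM (-0.38, limma adjusted p = 0.0072). GLRX, the cytosolic glutaredoxin, rose from 10.5 ± 1.46 to 15.7 ± 1.14 TPM (0.55, limma adjusted p = 0.0035), and IDH1, which yields NADPH, from 193.8 ± 5.08 to 222.5 ± 12.6 TPM (0.20, limma adjusted p = 0.029). The IDH1 call was lost without shNT1 replicate 1 or 3 or shAPC replicate 1 or 2. The count of falling genes depended on single libraries. It was 5 without shNT1 replicate 1 or 2, 4 without shAPC replicate 2, 6 without shAPC replicate 3, and 5 after quantile normalization. The count of rising genes was 1 without shNT1 replicate 1 or shAPC replicate 1.

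Tested NRF2 targets fell more often than all genes in each arm. With CTNNB1 14 of 16 tested fell and 0 rose (median -0.42 beside 0.06), against 7.16% and 16.3% of all genes. With shAPC 9 of 16 fell and 0 rose (median -0.24 beside -0.045), against 14.9% and 7.24%. The 9 became 8 without shNT1 replicate 1 or 2 or shAPC replicate 2 or 3, and with a replicate block. Without shNT1 replicate 2, 1 rose. With CTNNB1 13 or 14 fell with single libraries left out. Rises at an unadjusted p under 0.05 by limma numbered 0 and 1. AKR1B10, an aldo-keto reductase, fell from 513.8 ± 11.97 to 215.4 ± 17.5 TPM with CTNNB1 (-1.25, limma adjusted p = 2.1e-06). It fell from 262.3 ± 17.7 to 96.6 ± 2.95 TPM with shAPC (-1.43, limma adjusted p = 3.6e-07). BLVRB, biliverdin reductase B, fell from 115.9 ± 5.33 to 47.5 ± 2.96 TPM with CTNNB1 (-1.27, limma adjusted p = 2.1e-06). SLC7A11, GCLM, ME1 and other genes stand in both this list and the previous one. GFP was the group with the highest mean for 15 of these 16 genes, and for 13 of the 20 glutathione genes. Over all genes it was the highest for 21%, or for 30.7% after median-ratio scaling, where the list counts were 16 and 14. GFP was also the highest for GPX1, GPX2 and GPX3.

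Of 11 tested genes linked to selenium uptake and selenoprotein synthesis, 2 rose and 0 fell with CTNNB1, beside 16.3% and 7.16% of all genes. Their median was 0.13 beside 0.06. With shAPC the median was 0.04 beside -0.05, and limma called 0, against 22.1% of all genes, with 3 higher at an unadjusted p under 0.05. There it called 2 higher after either scaling or without shNT1 replicate 3, and 1 without shAPC replicate 3. SEPHS1, a selenophosphate synthetase homologue, rose from 75.4 ± 1.01 to 90.8 ± 2.66 TPM (0.26, limma adjusted p = 0.0033). EEFSEC, the elongation factor that carries selenocysteine, rose from 15.7 ± 0.253 to 18.03 ± 0.872 TPM (0.19, limma adjusted p = 0.047). The EEFSEC call was lost after either scaling, and without GFP replicate 1, 2 or 3 or CTNNB1 replicate 2 or 3.

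Other selenoproteins moved in both directions. With CTNNB1 2 of 13 tested rose and 3 fell, with a median of -0.03 beside 0.06 for all genes. With shAPC 3 rose and 2 fell among the 13 tested that did not pass the filter through 1 group only, with a median of 0.05 beside -0.05. Across all genes 16.3% were called higher and 7.16% lower with CTNNB1, and 7.24% higher and 14.9% lower with shAPC. MSRB1, a methionine sulfoxide reductase, fell from 47.5 ± 1.95 to 28.9 ± 1.08 TPM with CTNNB1 (-0.69, limma adjusted p = 4.4e-05), as did SELENOK, a protein of the endoplasmic reticulum, from 88.6 ± 4.18 to 63.8 ± 3.11 TPM (-0.47, limma adjusted p = 0.00038). TXNRD3 (0.50, limma adjusted p = 0.036) and SELENON (0.47, limma adjusted p = 0.013) rose there. TXNRD1, the cytosolic thioredoxin reductase, fell with shAPC from 301.5 ± 11.6 to 256.6 ± 8.73 TPM (-0.23, limma adjusted p = 0.011), as did SELENOI, an ethanolamine phosphotransferase (-0.34, limma adjusted p = 0.015). SELENOW (0.27, limma adjusted p = 0.034) rose with shAPC. SELENOM and SELENOP passed the filter only through shAPC and are given as levels. The SELENOM mean was 0.958 ± 0.554 TPM with the control hairpin and 2.95 ± 1.40 TPM with shAPC, and the SELENOP mean 0.715 and then 1.30 TPM. Several of these calls rested on single libraries. TXNRD3 was lost without any 1 of the GFP libraries and SELENON without GFP replicate 3. SELENOI was lost without shAPC replicate 1 or 3. SELENOW was lost without shNT1 replicate 2 or 3 or shAPC replicate 2 or 3. The 3 rising with shAPC became 1 without shNT1 replicate 1 or 3, and 0 without shNT1 replicate 2 or shAPC replicate 2 or 3. The 2 falling there became 1 without shAPC replicate 1 or 3, and the 2 rising with CTNNB1 became 1 without GFP replicate 1 or 2 and 0 without GFP replicate 3.

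Other enzymes against peroxide and superoxide were split. With CTNNB1 3 of 18 tested rose and 6 fell, beside 16.3% and 7.16% of all genes, with a median of -0.03 beside 0.06. With shAPC 4 rose and 2 fell, beside 7.24% and 14.9% of all genes, with a median of -0.056 beside -0.045. SESN1, a sestrin, rose in both arms, from 9.79 ± 0.479 to 22.2 ± 4.05 TPM (1.09, limma adjusted p = 0.00015) and from 12.5 ± 1.08 to 27.1 ± 1.80 TPM (1.06, limma adjusted p = 1.9e-05). SOD3, the extracellular superoxide dismutase and thus secreted like GPX3, rose from 1.20 ± 0.156 to 1.94 ± 0.325 TPM with CTNNB1 (0.41, limma adjusted p = 0.034) and from 2.95 ± 0.451 to 4.43 ± 0.59 TPM with shAPC (0.46, limma adjusted p = 0.021). SRXN1, which restores over-oxidized peroxiredoxins, fell in both, with -0.77 for CTNNB1 (limma adjusted p = 4.2e-05) and -0.30 for shAPC (limma adjusted p = 0.0057). MGST1, a membrane glutathione transferase with peroxidase activity, fell with CTNNB1 from 347.5 ± 5.16 to 249 ± 6.15 TPM (-0.48, limma adjusted p = 5.8e-05). PRDX1, an abundant cytosolic peroxiredoxin, fell with shAPC from 1519 ± 84.3 to 1337 ± 43.9 TPM (-0.18, limma adjusted p = 0.044). With CTNNB1 the SOD3 call was lost after either scaling and without any 1 library other than CTNNB1 replicate 1, and with shAPC without shNT1 replicate 1 or shAPC replicate 2 or 3. The PRDX1 call was lost after median-ratio scaling and without any 1 library other than shNT1 replicate 3. The 3 rising with CTNNB1 became 1 without any 1 of the GFP libraries or CTNNB1 replicate 2, and 1 after median-ratio scaling. The 4 rising with shAPC became 2 without shNT1 replicate 1 or 2 or shAPC replicate 1 or 2, and 1 without shAPC replicate 3. The 2 falling with shAPC became 1 without shNT1 replicate 1 or 2 or shAPC replicate 1 or 3, and 1 after median-ratio scaling.

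**Figure D4:**
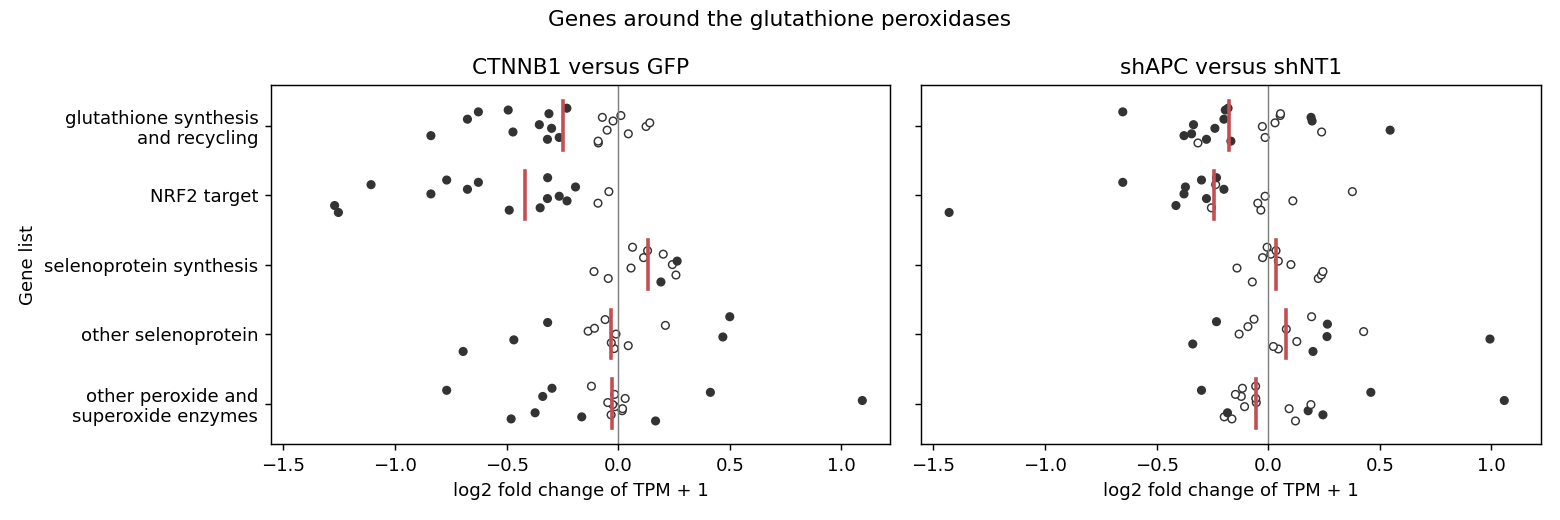
Difference in log2(TPM + 1) of each tested gene of 5 lists around the glutathione peroxidases, for CTNNB1 against GFP and shAPC against shNT1, filled where the limma adjusted p was under 0.05, with a vertical bar at each list's median. NRF2 targets lie furthest left, with medians of -0.42 and -0.24, while the medians of the selenoprotein lists lie between -0.03 and 0.13, counting every tested gene. SELENOM (filled) and SELENOP are drawn for shAPC, although they passed the filter only through that group. With them the bar of other selenoproteins is at 0.08 there, and without them the median was 0.05.

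Correlations between members over the 12 libraries depended in part on 1 library. They are given on log2(TPM + 1) as a description of libraries that share groups and totals. GPX1 and GPX4 had a Pearson correlation of 0.70 (Spearman 0.19), which was 0.04 without CTNNB1 replicate 1, the lowest library for both. GPX1 and GPX2 had 0.65 (Spearman 0.50), and 0.40 without that library. GPX2 and GPX3 had 0.65 (Spearman 0.29), and 0.72 without it. GPX3 and GPX8 ran opposite, at -0.69 (Spearman -0.57), GPX2 and GPX8 had -0.27 (Spearman -0.34), and GPX3 and GPX4 -0.09 (Spearman -0.48). Without CTNNB1 replicate 1 these 3 correlations were -0.75, -0.51 and -0.38.

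The genes most like GPX3 were picked by correlation with it, and GPX3 varied mainly between GFP and the other groups, so a high level in GFP was fixed by the choice. Among 9438 genes with a mean of at least 5 TPM, the highest Pearson correlations with GPX3 over 12 libraries were 0.990 for PSMB4, 0.985 for GLA, 0.984 for FAM219A, 0.983 for ANKEF1 and 0.982 for PSMA6. PSMB4 and PSMA6 encode proteasome subunits, and GLA is the lysosomal alpha-galactosidase. PSMB4 averaged 703.6 TPM in GFP, against 467.5, 427.2 and 432.7 in CTNNB1, shNT1 and shAPC. FAM219A averaged 11.9 TPM in GFP, against 4.49, 3.56 and 3.67. GPX2 was most like SLC29A2 (0.948), SH3BGRL3 (0.929) and MON1A (0.925). GPX1 was most like NDUFB7 (0.949), EMC6 (0.941) and TIMM13 (0.892), and GPX4 most like MUS81 (0.920), NTHL1 (0.891) and PNPLA2 (0.883).

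**Figure D5:**
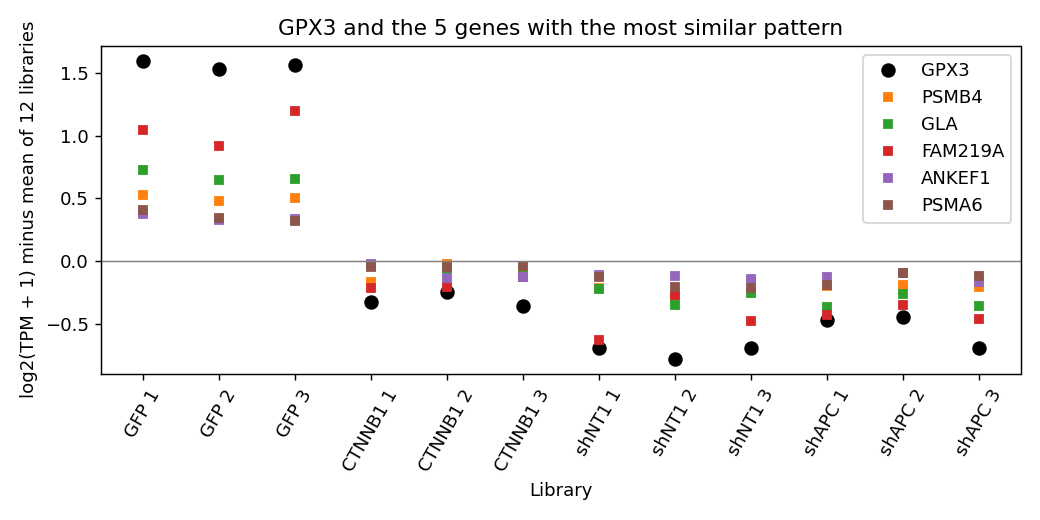
log2(TPM + 1) minus the mean of the 12 libraries for GPX3 (circles) and the 5 genes with the highest correlation to it (squares), by library. The 5 genes were chosen for following GPX3, and all 6 are above 0 in the 3 GFP libraries and below 0 in the other 9. GPX3 spans the widest range.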

How the data were processed

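Polyadenylated RNA of 12 libraries (4 groups of 3) was sequenced, per the labels. The deposited TPM table has 25528 rows, and each column sums to 1000000. STAR 2.7.3a, limma and the build hg38 are listed in the submitters' processing notes, while the step that made TPM and its annotation are not given in the sources used here. The deposited tables of the authors' own comparisons hold log2 fold changes and mean log2 expression, p-values with adjusted p-values, and a moderated t and log-odds score that are not used here, per the file headers.

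Levels are TPM as deposited. With limma 3.58.1 (R 4.3.3, mean-variance trend), log2(TPM + 1) was fitted in the 6 libraries of each arm alone, keeping genes whose TPM averaged 1 or more there. Contrasts across arms came from one fit of all 12. A gene was called at a Benjamini-Hochberg adjusted p under 0.05 over all genes tested, two-sided. Depth is unknown, so no counting interval is given. The fits were also run on simulated data with an assumed depth and spread, which checks the code and does not vouch for calls in these data.

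Named genes were the members, GPX5, GPX6, APC and CTNNB1. From each list except the WNT one, in each arm, up to 2 called genes with the largest rise and 2 with the largest fall were added. The 5 genes most correlated with GPX3, and 3 with each other member at a mean TPM of at least 5, were also named. GSR, MYC, NKD1, NOTUM, SELENOP, CHURC1, CDC20B, CDX1, CDX2, LYZ, CD3E, DEFA5 and DEFA6 were named after their values were seen. The members and lists were chosen with earlier results of these data known. Alternatives were another pseudocount, other filters, 2 scalings, a fit without the trend, a joint fit of the 4 groups, a replicate block and leaving out each library.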

Additional observations from a re-analysis of the deposited data

Results flagged for a closer look

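Effects that differed between the arms were looked for among 25 genes: GPX1, GPX2, GPX4 and the named genes of the lists. The CTNNB1 effect minus the shAPC effect differed from 0 in 9 of them by limma, adjusted over all genes, and in 8 after median-ratio scaling. Across all genes it differed in 16.1%, and in 1444 of 11739 after median-ratio scaling. SELENOM, which passed the filter only through shAPC, is among the 25 and not among the 9. Most of the 25 were named for a large called change in 1 arm, which favours a difference between the arms, so their count is no result about the lists. The median difference of all genes was 0.11 (0.0041 after median-ratio scaling). MSRB1 had -0.90 (limma adjusted p = 1.2e-05) and SELENOK -0.60 (limma adjusted p = 2e-04). BLVRB had -0.86 (limma adjusted p = 0.00014), ME1 -0.48 (limma adjusted p = 0.001) and SRXN1 -0.47 (limma adjusted p = 0.0027). MGST1 had -0.32 (limma adjusted p = 0.0068), GLRX -0.60 (limma adjusted p = 0.0076) and GCLM -0.46 (limma adjusted p = 0.013). SEPHS1 had 0.22 (limma adjusted p = 0.042), with an adjusted p of 0.19 after median-ratio scaling.

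GPX3 had -2.06 in the same contrast. Its CTNNB1 libraries all lay below the GFP libraries, and its shAPC libraries all above the shNT1 libraries. This difference was not tested, because GPX3 was chosen by it.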

How the results depend on the processing

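The GPX2 fall with CTNNB1 was called in every alternative run, with an adjusted p of at most 0.029. GPX3, chosen by its values and so untested, kept its direction in every run. With shAPC, GPX1, GPX2 and GPX4 were called in no run. Members called between CTNNB1 and shAPC became 1 after quantile normalization. Small uncalled differences changed sign. With shAPC, median-ratio scaling gave 0.0058 for GPX1 and 0.0346 for GPX4, quantile normalization 0.0419 and 0.0393, and GPX4 ran from -0.0445 to 0.0017 (without shAPC replicate 3) with single libraries left out. Left out singly, libraries gave a difference between the arms of -0.1272 to 0.0193 for GPX1 and -0.1059 to 0.0078 for GPX4, and for CTNNB1 against shAPC -0.0849 to 0.0616 for GPX1 and -0.1066 to 0.0102 for GPX2, each highest without CTNNB1 replicate 1. Without shAPC replicate 2 the latter gave 0.0032 for GPX1, and GFP against shNT1 gave 0.0134 for GPX4 after median-ratio scaling.

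Median-ratio scaling moved the GFP means of GPX2 and GPX3 to 622.5 and 120.3. It lowered the share of higher calls in the difference between the arms from 82.8% to 54.9%. List medians were recomputed under alternatives chosen after seeing the data. They count every tested gene, so SELENOM and SELENOP enter those of other selenoproteins with shAPC where tested. Counted that way, the median of that list in the main fit was 0.08, beside 0.05 for the 13 genes counted above. After median-ratio scaling the list medians were -0.31 (glutathione) and -0.09 (peroxide and superoxide) with CTNNB1, and 0.13 (other selenoproteins), -0.0085 (peroxide and superoxide) and -0.20 (NRF2) with shAPC. After quantile normalization they were -0.0704 (peroxide and superoxide) and -0.50 (NRF2) with CTNNB1, and -0.098 (glutathione), 0.16 (other selenoproteins) and -0.011 (peroxide and superoxide) with shAPC. Other selenoproteins with CTNNB1 had -0.09 and -0.10 after the 2 scalings, and selenoprotein synthesis genes 0.07 and 0.08 with CTNNB1 and 0.08 and 0.11 with shAPC. With single libraries left out the WNT median with CTNNB1 ran from 0.68 to 0.86, counting NKD1 and NOTUM where they were tested. In the main fit that median was 0.80 with these 2 genes and 0.69 without them. With shAPC the medians ran from -0.19 to -0.11 (glutathione), 0.0406 to 0.13 (other selenoproteins), -0.092 to -0.030 (peroxide and superoxide) and -0.28 to -0.22 (NRF2).

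Calls over all genes, 2730 with CTNNB1, ranged from 1499 to 3190 with single libraries left out, and were 1617, 1499 and 1705 without GFP replicates 1, 2 and 3 and 1760 without CTNNB1 replicate 2. With shAPC, 2615 became 1484 to 2252, with 1646 and 1484 without shAPC replicates 2 and 3. For the difference between the arms, 1885 became 995 to 2143, with 1092 and 995 without GFP replicates 1 and 2, and 1246 and 1021 without shAPC replicates 2 and 3.

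Replicate numbers are shared across groups, and the labels do not say what they mark. Deviations of same-numbered libraries correlated at 0.21, 0.08 and 0.12 in the CTNNB1 arm and at -0.14, 0.0025 and -0.21 in the shAPC arm. Their mean was 0.14 in the CTNNB1 arm, against -0.07 for different numbers, and -0.12 against 0.06 in the shAPC arm. The main fits did not take the numbers as pairs, and a block on them was run as an alternative. In the CTNNB1 arm 5 of 6 libraries correlated best with their own number, and in the shAPC arm 1 of 6. With the replicate block, calls over all genes were 2895, 1767 and, for the difference, 1145. GPX2 with CTNNB1 was at -0.30 (limma adjusted p = 0.0029), and SEPHS1 no longer differed between the arms (limma adjusted p = 0.08). In the shAPC arm the glutathione list then had 1 rising and 5 falling genes. Other selenoproteins there had 0 rising of the 13 counted, and peroxide enzymes 2 rising and 1 falling. The calls of IDH1, SELENOW, PRDX1 and MYC with shAPC and of EEFSEC with CTNNB1 were lost under the block. TPM keeps no depth, so what depth limits cannot be given.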
